A study of Mus musculus with 5 samples.

Results

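Tmem119, Olfml3, Sparc, Slc2a5, Trem2 and Sall1 are genes by which resident microglia, the macrophages of the brain parenchyma, are commonly told from other myeloid cells. They were read in sorted brain dendritic cells (DCs) and bone marrow monocytes. The 6 names were chosen with earlier results of these data known. Probe sets were then taken by gene symbol: every probe set annotated to exactly 1 symbol, with that symbol among the 6 names. All 6 genes had at least 1 such probe set, 10 in all, of 34945 probe sets and 18193 genes tested. The members passed no filter on low values, because none was applied.

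The brain DC group held 2 arrays of Lin-CD45hiCD11c+ cells from the brains of mice that had carried B16-Flt3L tumours, seeded under the skin, for 12 days. Such tumours derive from the B16 melanoma line and secrete Flt3 ligand, a cytokine that expands dendritic cells. The monocyte group held 3 arrays of bone marrow cells sorted as SSCloCD11bhi CD115+, with no treatment given in the labels. All mice were C57BL/6, labelled female and 6 to 8 weeks old. Neither the pooling of animals nor separate animals per array is stated, so the p-values rest on the spread among these samples alone, and that spread may be technical. Microglia and spleen DCs, which the series also names, were not analysed here, so the microglial identity of the 6 genes is background and not something these arrays can check.

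Microglia settle in the brain before birth and keep a gene programme that depends on signals of that tissue, among them transforming growth factor beta and the ligands of the CSF1 receptor. The transcription factor SALL1 helps to hold that programme in place, and genes such as Tmem119, Olfml3 and Slc2a5 belong to it. TREM2, by contrast, is a lipid-sensing receptor that several kinds of macrophage carry, and SPARC is a secreted matrix protein that endothelial cells, fibroblasts and platelets hold as well. Dendritic cells of the brain lie mainly in the meninges and the choroid plexus, and the CD45-high gate used here is one that microglia, with low to intermediate surface CD45, mostly fall below. Whether RNA of microglia is part of the brain DC values was not tested.

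Each value is a log2 value relative to a baseline of its probe set. It shows how arrays differ for one gene and gives no absolute level, so levels were not compared between genes and detection above background could not be judged. Array medians lay between -0.05 and 0.00. Differences are brain DC minus monocyte, with the standard error of the limma fit over all 18193 genes, and a gene is called when its Benjamini-Hochberg adjusted p is below 0.05. With 2 and 3 arrays, the smallest p that a two-sided exact permutation test can reach is 0.1, and the number of arrays limits the precision throughout.

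Several other features separated the same arrays. The 11 measured markers of conventional DCs were all called higher in brain DCs, and 9 of 10 measured monocyte markers were lower. Although all samples are labelled female, the mean of Xist, the RNA of the inactive X chromosome, was -0.41 in brain DCs and -6.03 in monocytes, and the Y-linked genes Kdm5d, Uty and Eif2s3y were lower in brain DCs by 1.09, 0.91 and 0.62. The 5' control probe set of Gapdh was 2.80 higher in brain DCs while its 3' probe set differed by -0.12, and all 24 poly-A spike-in probe sets were higher there, with a median of 2.59. Cell type, tissue, tumour treatment and these features cannot be told apart from each other in any result below.

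Of the 6 genes, 5 were called higher in brain DCs and 1, Trem2, was not called. The background was 16.9% of all genes called higher in brain DCs, and as many, 16.9%, were called lower. The median difference over the 6 was 1.31, against 0.09 over all genes. Because the names were chosen with earlier results of these data known, these contrasts with all genes describe the set and do not test it. Olfml3 and Tmem119 had differences of 2.09 and 2.05, Sparc and Sall1 followed, and Slc2a5 had the smallest called difference. In the same 5 genes both brain DC arrays lay above all 3 monocyte arrays, which held for 35.1% of all genes. In bulk RNA of sorted cells, more cells of a type and more RNA per cell cannot be told apart.

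**Figure D1:**
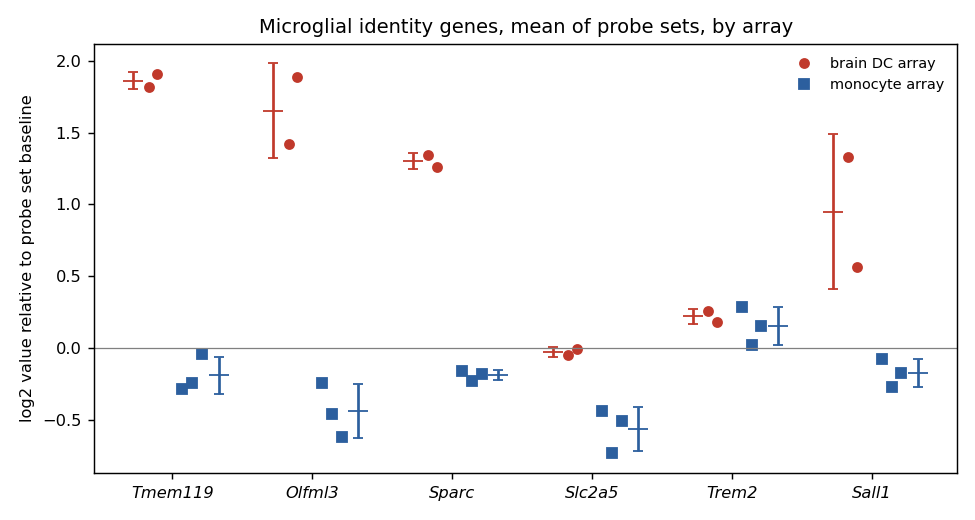
Log2 value of each gene, as the mean of its probe sets, relative to the probe set baseline (vertical axis) in the 2 brain DC arrays (red circles) and the 3 monocyte arrays (blue squares), with bars for mean ± SD beside the points. The groups lie apart for Tmem119, Olfml3, Sparc, Slc2a5 and Sall1 and overlap for Trem2.

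Upstream sequences were matched by symbol in RefSeq tables of build GRCm38.p6, which held windows for 5 of the 6 genes, all but Tmem119. The 250 bases before the annotated start are shown for Olfml3 and Sparc, the pair with a large difference and 1 window each, and for Trem2, which was not called. The windows are chr3:103738002-103738251 on the minus strand, chr11:55420081-55420330 on the minus strand and chr17:48346151-48346400 on the plus strand. Capitals mark matches, on either strand, to GAGGAA (core of the PU.1 site), TGCTGAC (a MAF-type site), CAGAC (a SMAD-binding sequence), TATAAA (the TATA box) or CACGTG (an E-box).
Olfml3: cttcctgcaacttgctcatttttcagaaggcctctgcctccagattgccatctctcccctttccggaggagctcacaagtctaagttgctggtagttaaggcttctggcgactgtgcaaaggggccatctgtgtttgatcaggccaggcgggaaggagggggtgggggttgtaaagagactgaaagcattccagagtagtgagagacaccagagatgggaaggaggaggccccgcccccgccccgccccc
Sparc: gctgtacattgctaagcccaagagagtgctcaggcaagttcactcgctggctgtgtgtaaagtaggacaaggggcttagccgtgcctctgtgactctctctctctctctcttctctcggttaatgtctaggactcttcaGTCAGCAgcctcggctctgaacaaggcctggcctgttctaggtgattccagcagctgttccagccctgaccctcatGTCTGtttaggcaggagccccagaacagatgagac
Trem2: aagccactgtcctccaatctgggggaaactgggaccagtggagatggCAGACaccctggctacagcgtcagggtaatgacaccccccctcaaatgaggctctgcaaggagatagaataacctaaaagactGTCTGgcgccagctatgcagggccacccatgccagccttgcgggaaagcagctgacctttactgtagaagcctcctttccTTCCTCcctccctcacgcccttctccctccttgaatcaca
With positions counted back from the start, the Trem2 window held GAGGAA at -40 and CAGAC at -203 and -120, and the Sparc window held TGCTGAC at -111 and CAGAC at -35. None of the 5 letter strings was found in the Olfml3 window. The Slc2a5 window (chr4:150119094-150119343, plus strand) held CAGAC 4 times, and of the 3 Sall1 windows the first held it once. Among all 32851 upstream windows of this length, 23.3% held GAGGAA, 3.81% TGCTGAC, 42.2% CAGAC, 12.4% TATAAA and 6.02% CACGTG. The 7 windows of these genes held them in 1, 1, 4, 0 and 0 cases. These are matches of letters and not binding sites.

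Tmem119 encodes a transmembrane protein of the microglial surface. Its single probe set, 1451344_at, read 1.82 and 1.90 in the brain DC arrays and -0.28, -0.24 and -0.04 in the monocyte arrays. The brain DC arrays differed from each other by 0.08, and the lower of them was 1.86 above the highest monocyte array. The gene was 4.14-fold higher in brain DCs (2.05 ± 0.13 SE, n = 2 and 3, limma adjusted p = 4.81e-05, 95% interval 1.74 to 2.36). Only 1.71% of genes had a larger increase.

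Trem2 encodes a surface receptor that signals through the adaptor TYROBP. Its gene mean was 0.26 and 0.18 in brain DCs and 0.29, 0.02 and 0.15 in monocytes. The groups overlapped, and the highest of the 5 values was a monocyte array. The difference was 0.07 ± 0.13 SE (n = 2 and 3, limma adjusted p = 0.735), with a 95% interval from -0.25 to 0.38, or from 0.843 to 1.30 as a ratio. A difference of 2.05, as in Tmem119, lies outside that interval. Both probe sets gave small differences. 1421226_at read -0.12 and -0.36 in brain DCs against -0.31, -0.48 and -0.22 in monocytes. 1421792_s_at read 0.64 and 0.73 against 0.89, 0.52 and 0.53. Their differences were 0.10 and 0.04, and each had an adjusted p above 0.7 in the limma fit over 34945 probe sets (0.705 and 0.903).

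Olfml3 encodes a secreted glycoprotein with an olfactomedin domain. Its single probe set, 1448475_at, read 1.42 and 1.88 in brain DCs and -0.24, -0.45 and -0.62 in monocytes. The second brain DC array was 0.46 above the first, and the groups were 1.66 apart at their nearest values. The gene was 4.26-fold higher in brain DCs (2.09 ± 0.18 SE, n = 2 and 3, limma adjusted p = 1.80e-04), the largest difference of the 6, and 1.62% of genes had a larger one.

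Sparc encodes a secreted protein that binds collagen and modifies how cells attach to matrix, and its 3 probe sets did not agree. 1416589_at read 1.76 and 2.01 in brain DCs against -0.71, -0.58 and -0.59 in monocytes, a difference of 2.51 ± 0.16 SE (limma adjusted p = 4.61e-05 over all probe sets). 1448392_at read 2.23 and 1.88 against 0.10, 0.09 and 0.11, a difference of 1.95 ± 0.17 SE (limma adjusted p = 1.73e-04). 1458204_at, annotated through an expressed sequence tag and not through the RefSeq mRNA of the other pair, read 0.04 and -0.11 against 0.15, -0.19 and -0.06. Its groups overlapped, and it was not called (0.00 ± 0.17 SE, limma adjusted p = 0.998, 95% interval -0.39 to 0.39). The order of the brain DC arrays was opposite in the first and second probe sets, so neither array was higher throughout. The mean of the 3 was 2.81-fold higher in brain DCs (1.49 ± 0.12 SE, n = 2 and 3, limma adjusted p = 1.21e-04), and the log2 difference was 2.51, or 5.70-fold, when the gene was read from 1416589_at, the probe set with the widest range.

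**Figure D2:**
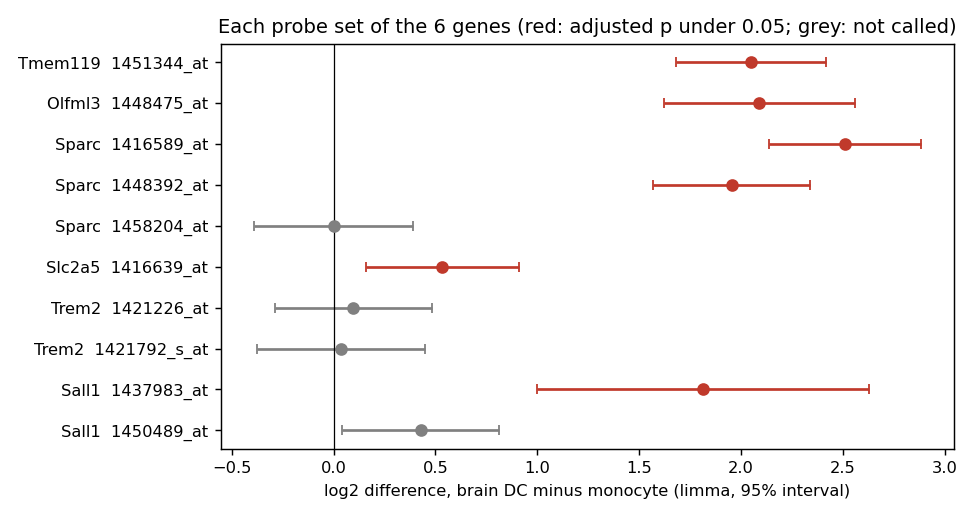
Log2 difference, brain DC minus monocyte, of each of the 10 probe sets with its 95% interval from the limma fit over 34945 probe sets (red, called; grey, not called; intervals are not adjusted for the number of probe sets). Sparc 1458204_at and both Trem2 probe sets lie near 0, and the Sall1 pair lies at 1.81 and 0.43.

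Slc2a5 encodes GLUT5, a fructose transporter of the gut epithelium and of microglia. Its probe set 1416639_at read -0.05 and 0.00 in brain DCs and -0.44, -0.73 and -0.51 in monocytes. The brain DC arrays were close together and the nearest monocyte array was 0.39 below them. The difference was 1.45-fold (0.53 ± 0.14 SE, n = 2 and 3, limma adjusted p = 0.0212), and 14.2% of genes had a larger increase. Leaving out any of 3 arrays ended the call: the limma adjusted p rose to 0.0626 without brain DC replicate 1 (difference 0.56), to 0.0748 without brain DC replicate 2 (difference 0.51) and to 0.0570 without monocyte replicate 2 (difference 0.45). Fitted over probe sets, 1416639_at was called with all arrays (limma adjusted p = 0.0410) and lost its call when any single array was left out (limma adjusted p from 0.0715 to 0.119).

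Sall1 encodes a zinc finger transcription factor, the one gene of the set that acts in the nucleus. Its gene mean was 1.33 and 0.57 in brain DCs and -0.07, -0.27 and -0.17 in monocytes. The first brain DC array was 0.76 above the second, the widest gap between brain DC arrays among the 6 genes. The difference was 2.18-fold (1.12 ± 0.22 SE, n = 2 and 3, limma adjusted p = 0.00663), and leaving out brain DC replicate 1 reduced it to 0.74 (limma adjusted p = 0.0174). Most of it came from 1437983_at, which read 2.36 and 1.01 against -0.10, -0.20 and -0.09, a difference of 1.81 ± 0.35 SE (limma adjusted p = 0.00643 over all probe sets). That probe set differed by 1.14 when brain DC replicate 1 was left out. The other, 1450489_at, read 0.30 and 0.13 against -0.05, -0.34 and -0.26. It differed by 0.43 ± 0.17 SE and was not called (limma adjusted p = 0.0902), although its groups did not overlap.

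Over the 10 probe sets, 6 were called higher, where 13.5% of all probe sets were, and 7 had both brain DC arrays above all monocyte arrays, where 31.2% of all did. The responses of the 6 genes were also set against each other in 15 pairs. The lowest exact permutation p was 0.1, the smallest possible, or 0.115 after adjustment over the 15 pairs. No pair could therefore pass the threshold, and the test cannot decide whether the responses differ. In 13 of the 15 pairs the brain DC and monocyte arrays did not overlap. No such count was made for pairs of other genes, and the 15 pairs share the same 6 genes, so this count was not read as a result. Tmem119 and Olfml3 differed by -0.04 in their responses (exact permutation p = 1) and Sparc and Sall1 by 0.37 (exact permutation p = 0.2), with overlap in both cases.

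**Figure D3:**
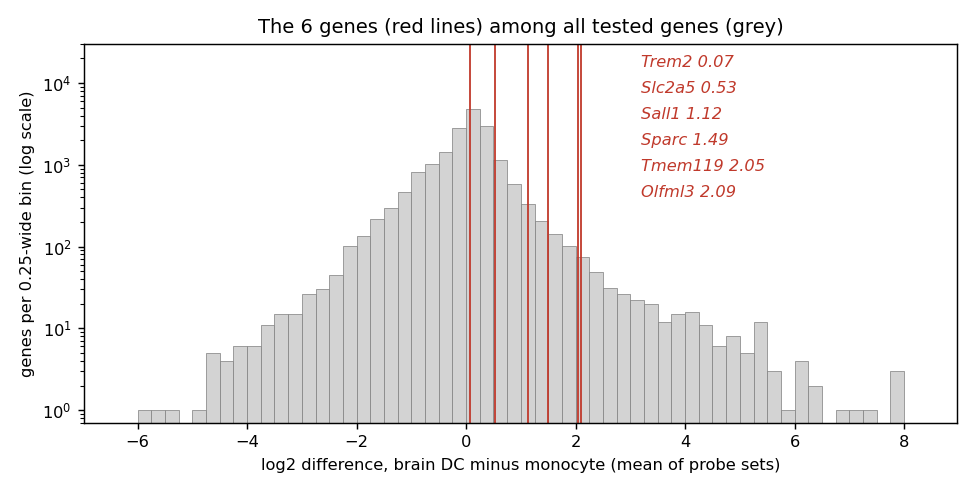
Distribution of the log2 difference, brain DC minus monocyte, over 18193 genes (grey bars, genes per bin on a log axis), with the 6 genes as red lines. Olfml3 and Tmem119 sit at 2.09 and 2.05 and Trem2 at 0.07, next to the median of 0.09.

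The genes with the most similar profile over the 5 arrays were found by the root mean square distance between profiles, each centred on its own mean. For Tmem119 they were Pold4, Dnase1l3 and Etv3, at distances of 0.05, 0.08 and 0.08. For Olfml3 they were Cdkn1a, Mrvi1 and Pea15a, at 0.06, 0.08 and 0.08, and for Sall1 Gm36365, Mrpl14 and Gtf2a2, at 0.07, 0.08 and 0.09. Sparc lay nearest to Rab11a, C130026I21Rik and Glrx, between 0.04 and 0.05. Slc2a5 lay nearest to Gm20740, Surf1 and Psma5, and Trem2 to Ndst3, Fblim1 and Lox, with no distance above 0.03. With 5 arrays in 2 groups such neighbours are many: within a distance of 0.25 lay 172 genes for Tmem119, 116 for Olfml3 and 9972 for Trem2.

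Other genes of resting microglia were called in both directions, the lower ones in about the share found over all genes. Of 34 measured, 18 were called higher in brain DCs (52.9%), 5 lower (14.7%) and 11 not called, with a median of 0.71. Over all genes, 16.9% were called higher and 16.9% lower. Gpr34, a lysophospholipid receptor gene, was 12.5-fold higher (3.64 ± 0.21 SE, limma adjusted p = 2.65e-05), with 0.25 and 0.04 in brain DCs against -3.59, -3.79 and -3.12 in monocytes. Fcrls, an Fc receptor-like gene of mouse microglia, was 10.9-fold higher (3.45 ± 0.15), reading 3.02 and 3.37 against -0.28, -0.31 and -0.19. Spint1, a protease inhibitor gene, was higher by 3.35. The purinergic receptor genes P2ry12 and P2ry13 were 5.64-fold and 3.22-fold higher (2.49 ± 0.33 and 1.69 ± 0.19). Both read higher in the first brain DC array (3.18 against 2.06, and 1.89 against 1.32), as did Sall1. Fcrls, Olfml3 and Tmem119 read higher in the second, and the order of these arrays was not counted over all genes. Siglech, a lectin gene shared with plasmacytoid DCs, was higher by 1.78 ± 0.13.

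The 5 lower genes included a pair of receptor genes often used to mark microglia, Cx3cr1 and Csf1r. The fractalkine receptor gene Cx3cr1 was at -2.56 ± 0.22, and the probe sets ranged from -3.57 to -1.54. Csf1r, the receptor gene whose product CD115 was part of the monocyte gate, was at -1.40 ± 0.18. Pros1, a bridging ligand of MERTK, was at -1.68, the checkpoint gene Vsir at -1.85 and the transporter gene Abcc3 at -0.69. Tgfbr1 (0.09) and Smad3 (-0.03) were not called.

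**Figure D4:**
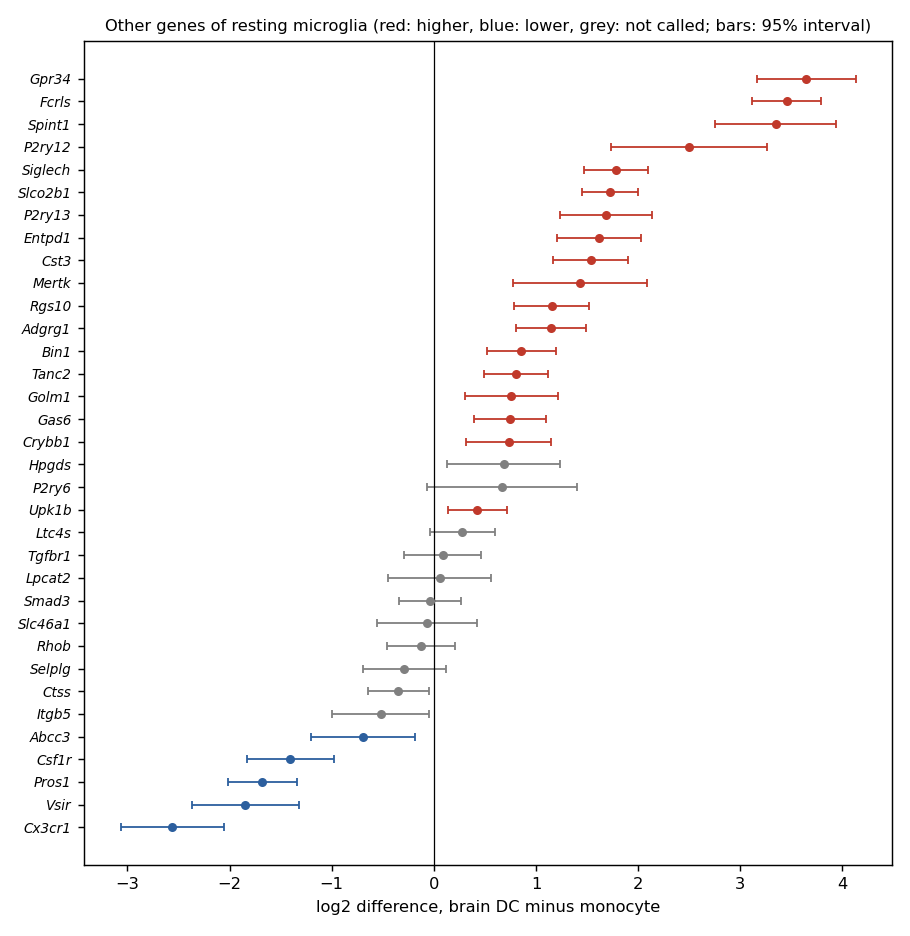
Log2 difference, brain DC minus monocyte, with 95% interval, of the 34 other measured genes of resting microglia (red, higher; blue, lower; grey, not called). The genes run from Cx3cr1 at -2.56 to Gpr34 at 3.64.

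Complement C1q, which microglia and other tissue macrophages make, gave larger differences than any of the 6 genes, although the gap itself was not tested. C1qb, C1qc and C1qa were higher by 6.23 ± 0.14, 4.62 ± 0.15 and 4.46 ± 0.18 SE, with values from 3.51 to 5.75 in brain DCs and from -1.22 to -0.33 in monocytes.

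Around Trem2, partner genes differed in both directions. Among the 14 measured in TREM2 signalling, 3 were called higher (21.4%), 5 lower (35.7%) and 6 not called, with a median of -0.12. Over all genes, 16.9% were called higher and 16.9% lower, the background for this list and for those that follow. The share called higher was near that background. Tyrobp, the adaptor that TREM2 needs, read 0.14 and -0.02 in brain DCs against 0.43, 0.37 and 0.29 in monocytes. Its difference of -0.30 ± 0.13 SE was not called (limma adjusted p = 0.108). The kinase gene Syk was 2.02-fold lower (-1.02 ± 0.13), followed by Vav1 (-0.81), Plcg2 (-0.79), Ptpn6 (-0.58) and Sh2b3 (-0.56). The higher genes were the adaptor genes Blnk (2.10) and Hcst (0.59) and the phosphatase gene Inpp5d (0.45). Leaving out brain DC replicate 2, or monocyte replicate 1, left only 1 of the 14 higher, and without brain DC replicate 1 or monocyte replicate 3, or with the replicate block, 3 were lower.

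Of 11 measured genes of TREM2 ligands, cleavage and MS4A partners, 1 was higher, 4 lower and 6 not called. Clu, a lipoprotein that TREM2 binds, was higher by 1.77 ± 0.15, and the protease genes Adam17 (-1.24) and Adam10 (-0.58), together with Ms4a6c (-1.61) and Ms4a6b (-1.01), were lower. Apoe was at -0.02 and not called. The 4 lower genes became 2 without brain DC replicate 2. In the TREM family, Trem1, the inflammatory receptor gene, was 4.25-fold higher (2.09 ± 0.13) and Treml4 was higher by 1.98 ± 0.33, whereas Trem3 (-2.04 ± 0.19) and Cd300lf (-1.11) were lower and 5 of 9 measured were not called. Trem1 read 1.83 and 1.76 against -0.20, -0.29 and -0.39, so its groups did not overlap.

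**Figure D5:**
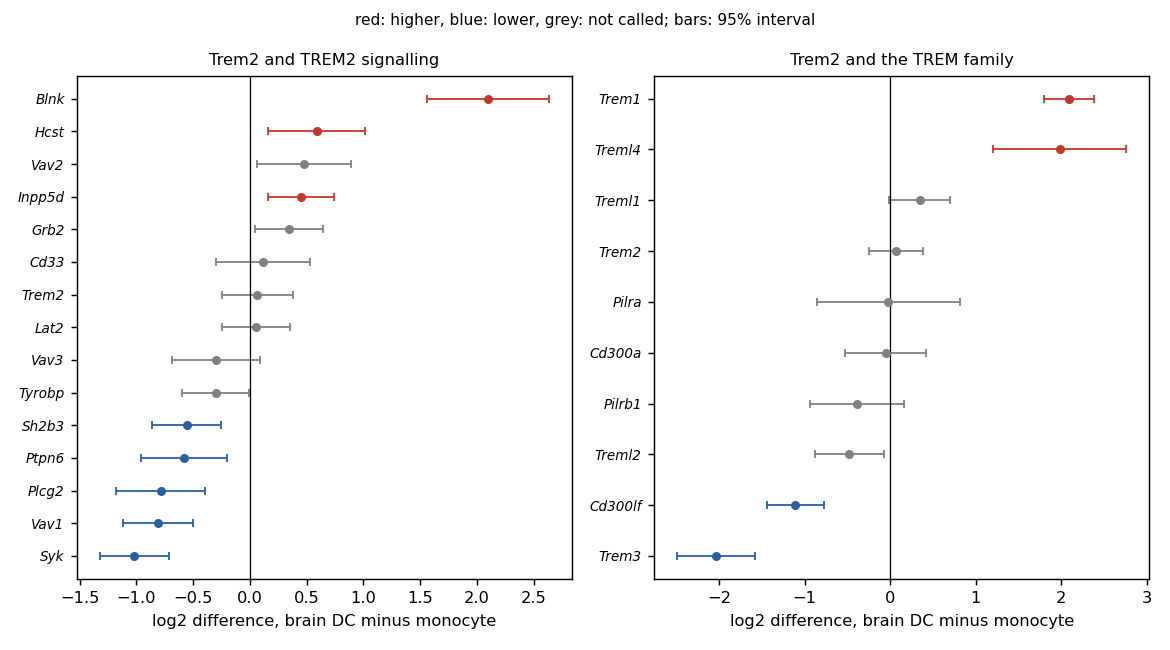
Log2 difference, brain DC minus monocyte, with 95% interval, of Trem2 beside genes of TREM2 signalling (left) and of the TREM family (right), coloured red for higher, blue for lower and grey for not called. Trem2 lies at 0.07, between Blnk at 2.10 and Syk at -1.02 on the left and between Trem1 at 2.09 and Trem3 at -2.04 on the right.

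Among genes that microglia raise in disease, which depend in part on TREM2, 25 were measured: 8 called higher, 7 called lower and 10 left uncalled, with a median of -0.12. The largest were Itgax (5.02), which the brain DC gate selected, Ccl4 (4.16) and Cd9 (3.78). Lpl was at -2.94. With brain DC replicate 2 left out, 5 of the 25 were higher.

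Relatives of Sparc and Olfml3 that were called in the main fit were all higher. The shares were 33.3% of matricellular genes, 50% of SPARC binding partners and 25% of olfactomedin genes. Over all genes, 16.9% were called higher and 16.9% lower. Of 12 measured matricellular genes, 8 were not called and 4 were higher: Ccn2 (1.39), Fstl1 (0.80), Sparcl1 (0.76) and Ccn1 (0.48). Thbs1 was at -0.73 and not called, and 1 gene of the list was called lower without monocyte replicate 3, with the replicate block or with a filter on range. Of 12 genes for SPARC binding partners, 6 were higher, led by the basement membrane collagen gene Col4a2 (1.33), Pdgfb (0.87) and the adhesion gene Vcam1 (0.80), and 1 was lower without brain DC replicate 2. Of 8 measured olfactomedin genes, 2 were higher, Olfm1 (1.20) and Olfml2a (0.57), and only 1 when any of brain DC replicates 1 and 2 and monocyte replicates 1 and 2 was left out.

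Among 10 measured hexose transporters related to Slc2a5, the glucose transporter genes Slc2a1 and Slc2a3 were higher by 1.52 ± 0.15 and 1.05 ± 0.14, against 0.53 for Slc2a5, although these gaps were not tested. The probe sets of Slc2a3 ranged from 0.03 to 2.03. Slc2a9 (-0.86) and Slc2a6 (-1.08) were lower, and 6 were not called. In fructose and hexose metabolism, Khk, the kinase that starts fructose breakdown, was higher by 1.55 ± 0.24 and Aldoc by 2.61 ± 0.23, while the hexokinase genes Hk2 (-1.53) and Hk3 (-0.89) were lower, among 8 measured.

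Of the SALL relatives, Sall4 (0.40), Sall3 (0.37) and Sall2 (0.27) were not called. Together with subunits of NuRD, the repressor complex that SALL proteins recruit, 1 of 15 genes was higher, Mbd3 (0.98). Mbd3 lost its call without brain DC replicate 1, and 2 genes were higher without brain DC replicate 2 and 3 with the widest-ranging probe set. Of 15 measured transcription factors of microglia, 5 were higher, 3 lower and 7 not called. Egr1 (5.39), Jun (1.84), Irf8 (0.86), Spi1 (0.80), which encodes PU.1, and Mef2c (0.42) were higher, and Smad4, Mef2a (-0.83) and Smad2 (-0.81) were lower. The 5 became 2 without brain DC replicate 2, and with the widest-ranging probe set 6 were lower. In the TGF-beta axis 4 of 16 were higher, led by the feedback genes Skil (2.65) and Smad7 (1.36) and followed by Tgfb1 (0.93) and Bmp2 (0.74). Another 4 were lower: Ski (-1.12), Smad4, Bmpr2 (-0.92) and Smad2.

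Some markers of other cell types were also called between the same groups, in shares that differed from list to list. Their part in the values of the 6 genes was not tested. Over all genes, 16.9% were called higher and 16.9% lower. Oligodendrocyte (18.2%) and fibroblast (20%) markers were called higher in about that share. The shares of T and NK cell (25%) and astrocyte (27.3%) markers rest on 2 of 8 and 3 of 11 genes and are not far from it. Brain endothelial and mural markers were at 71.4% and neuronal markers at 0%. Because Sparc is also an endothelial and platelet gene, those lists stand beside it. Of 14 measured markers of brain endothelium and mural cells, 10 were higher and 4 not called, led by Cldn5 (2.56 ± 0.24), Slco1a4 (1.36) and Slco1c1 (0.94). The list mean was 0.37 in both brain DC arrays and between -0.32 and -0.30 in monocytes. The 10 became 4 without brain DC replicate 1, 6 without monocyte replicate 1 and 5 without monocyte replicate 3, and without brain DC replicate 2, 1 marker was lower. Of 8 measured markers of megakaryocytes and platelets, 5 were higher, among them Ppbp (4.77), Vwf (4.48) and Pf4 (2.90), and 1, Itgb3 (-0.71), was lower. The list mean was 1.29 to 1.49 in brain DCs and -0.40 to -0.30 in monocytes. Fibroblast and stromal markers had 2 of 10 higher, Bgn (0.61) and Dcn (0.40), and Col1a1 (0.16) and Col1a2 (-0.03) were not called. Both fibroblast calls were lost without brain DC replicate 2, and 1 was lost when any other array was left out.

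The choroid plexus list was led by Ttr, the transthyretin gene, at 7.22 ± 0.12. Its list means, which include Ttr, were 0.80 to 0.88 in brain DCs against -0.37 to -0.24 in monocytes. The median difference of the list was 0.50, with 7 of 10 not called and 3 higher. The 3 became 5 without brain DC replicate 1. Border-associated macrophages, which share the brain's edges with DCs, had 6 of 14 markers higher and 2 lower. Pf4, Clec4n (1.77) and Clec10a (1.43) were higher, F13a1 (-5.36) and Cbr2 (-1.18) were lower, and Mrc1 (0.05) was not called. The list mean was 0.99 to 1.00 in brain DCs and 0.76 to 0.87 in monocytes. Astrocyte markers had 3 of 11 higher, Aldoc, Gja1 (0.99) and Sparcl1, with list means of 0.31 to 0.45 against -0.19 to -0.08. Oligodendrocyte markers had 2 of 11 higher, Cnp (1.72) and Mag (0.49), with list means of 0.11 to 0.12 against -0.38 to -0.18, and only 1 when brain DC replicate 1 or any monocyte array was left out. Of 11 neuronal markers 1, Eno2 (-0.37), was lower and 10 were not called, and Eno2 lost its call whenever an array was left out. Leaving out brain DC replicate 1 also gave 1 neuronal marker called higher. The list means of neurons were 0.01 to 0.11 against -0.13 to 0.00.

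Osteoclast markers, which overlap with those of fusing macrophages and DCs, had 5 of 8 higher, led by Ocstamp (3.09), Acp5 (2.08) and Dcstamp (1.89). Plasmacytoid DC markers had 5 of 10 higher. Of blood cell lists, B cells had 2 of 6 higher, T and NK cells 2 of 8, neutrophils 1 of 9 with 3 lower, and erythroid cells 2 of 4. Leaving out any array reduced the erythroid count to 1 or fewer, and the lone higher neutrophil marker was S100a9 (1.41).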

How the data were processed

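Total RNA of 5 sorted mouse samples was labelled with biotin and read on Affymetrix arrays, 1 array per sample. Per the submitters' processing notes, the authors made the values with RMA, a method that adjusts background, brings arrays to a common distribution by quantile normalisation and combines probes. The deposited values are taken as log2 and lie around 0 within each probe set. The log base and the centring are inferred from the values, and the sources used here do not give the RMA version, the baseline or which arrays were normalised as one batch. RMA at probe set level keeps no depth or detection call.

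Of 45101 probe sets, 64 are controls. The rest had 1 symbol (34945), several (932) or none (9160). A gene's value is the mean of its probe sets. Differences were fitted with limma 3.58.1 in R 4.3.3 (lmFit, eBayes, no covariate) with all 5 arrays, over 18193 genes and separately over 34945 probe sets, with 3 residual degrees of freedom. The fit was also run on simulated data with independent noise and planted differences. Those data lack the other features that separate these arrays, and no result here rests on that run. All 6 symbols matched the GRCm38.p6 gene table by Entrez identifier.

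The members and the 30 gene lists, with 323 of 359 genes measured, were chosen with earlier results of these data known. Named genes were the 6, their 3 nearest profiles, for each list up to 3 called genes of greatest difference, and a fixed set. Others, such as the remaining genes behind small counts, Thbs1, Lpl, Col1a1, Col1a2, Clec10a, S100a9, Xist and the Y-linked genes, were picked with their values in view. Alternatives were other probe set rules, quantile normalisation, array centring, a robust prior, a range filter, a replicate block and leaving out each array.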

Additional observations from a re-analysis of the deposited data

How the results depend on the processing

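Tmem119, Olfml3, Sparc and Sall1 kept their direction and their call under all 12 alternatives, and Trem2 stayed uncalled in the 11 that gave it a value, since the filter on genes that hardly vary left it out. Differences under the alternatives reached at most 2.20 for Tmem119 and ran from 1.86 to 2.32 for Olfml3, 1.45 to 2.51 for Sparc, 0.74 to 1.81 for Sall1 and 0.00 to 0.13 for Trem2. Slc2a5 kept its direction in all 12 and its call in 9, and when single arrays were left out it ran from 0.45 to 0.59 with limma adjusted p from 0.0359 to 0.0748, so that 4 or 5 of the 6 genes were called. The count of genes called higher ran from 2236 to 3142 and of those lower from 2371 to 3570. The other genes of resting microglia had 15 to 18 higher and 4 to 7 lower.

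The replicate numbers of the labels do not say that arrays share a mouse or a day, so the replicate block is given only as a setting. Deviations of same-numbered arrays correlated at 0.04 and 0.09 across genes, and those of brain DC replicate 1 and monocyte replicate 3 at 0.05. With 2 brain DC arrays, their deviations from their mean are mirror images, so these correlations cannot decide whether arrays are paired. With the replicate block, which leaves 1 residual degree of freedom, Sall1 differed by 1.12 and Slc2a5 by 0.56, 2513 genes were higher and 3006 lower, and 5 of the 6 genes were called. Fitted by probe set, Slc2a5 kept its call in 1 of 7 settings, quantile normalisation, and lost it with the block (0.56, limma adjusted p = 0.0842) and whenever an array was left out (limma adjusted p from 0.0715 to 0.119). The uncalled probe sets of Sparc and Trem2 changed sign in some settings. Differences ran from -0.08 to 0.09 for Sparc 1458204_at, from -0.02 to 0.21 for Trem2 1421226_at and from -0.03 to 0.21 for Trem2 1421792_s_at. Where an array was left out of the brain DC pair, the lone array was assumed to vary like the monocyte arrays.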
